A study of Mus musculus with 120 samples.

Results

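The 49 genes described here encode transcription factors that set up and keep the blood lineages, from stem cells to red cells, platelets, granulocytes, monocytes and lymphocytes. They were named as a list, and all 49 matched a gene of the mouse RefSeq annotation. DNA methylation had been measured by whole-genome bisulfite sequencing in blood and hippocampus at postnatal weeks 3, 8 and 24. The animals were wild type or App-NLGF (labelled APP-nlgf), a knock-in that puts a humanised amyloid-beta sequence with familial Alzheimer mutations into the endogenous App gene, so no transgene promoter drives it. The labels gave 12 groups by tissue, genotype and age, each of 10 libraries (5 male and 5 female), and the strain background was not among the labels read. The authors compared the genotypes in each tissue and age and deposited 8961 called windows of 1 kb. In each of them the adjusted p is below 0.1 and the methylation of the genotypes differs by 10 percentage points or more. A called window that overlapped a member's gene body, or lay within 10 kb of it, was tied to that gene. By this rule 29 windows lay at 23 members and 26 members had none. Differences are App-NLGF minus wild type, an order read from the name of the deposited comparison alone. Only these calls were at hand, without methylation levels, coverage or values of single libraries. The read depth at a window is therefore unknown, no spread between animals can be shown, and the tissue labels could not be checked against marker levels. All positions are on mm10.

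Blood cells arise from a few stem cells through choices that are made by competing transcription factors. Tal1, Lmo2, Gata2, Runx1, Erg and Fli1 act together in stem cells; Gata1 and Klf1 then drive red cells, Spi1 and the C/EBP factors drive myeloid cells, Ebf1 and Pax5 fix the B cell fate, and Tcf7, Gata3 and Bcl11b the T cell fate. Methylation of CpG sites at the promoters and enhancers of such genes differs between blood lineages. Whole blood is a mixture of these cells, and some of the members, such as Bcl11a and Bcl11b, also act in neurons.

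Blood at week 8 was the comparison in which the members were called most often. In that list 20 of 49 members (40.8%) had a window, where 19.5% of all 21631 coding genes did. A lower window was held by 19 members (38.8%), against 18.8% of coding genes. Blood at week 3 had 3 members with a window (6.12%, against 2.79% of coding genes), and blood at week 24 had 0 (against 1.25%). Hippocampus had 2 members at week 3 (4.08%, against 2.6%), 0 at week 8 (against 1.74%) and 1 at week 24 (2.04%, against 2.43%). Outside blood at week 8, the counts of 0 to 3 genes thus came from backgrounds of 1.25% to 2.79%. No test was made of these shares, because the members had been put forward with results of these data known. In whole blood, a different mix of cells and a different methylation within the same cells cannot be told apart.

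**Figure D1:**
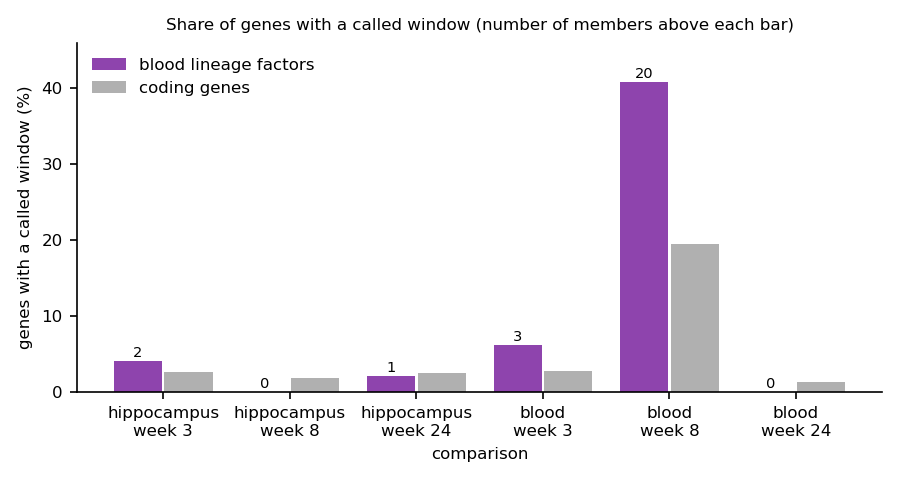
Share of genes with a called window (vertical axis, percent) in each of the 6 comparisons, for the 49 blood lineage factors (purple, with the number of members above each bar) and for all coding genes (grey). The purple bar reaches 40.8% in blood at week 8 beside a grey bar of 19.5%, and the purple bars reach at most 6.12% elsewhere.

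The 23 windows at members in blood at week 8 were nearly all lower in App-NLGF. By sign, 22 were lower and 1 was higher, so 95.7% were lower, beside 94.0% of the 3293 windows tied to any coding gene in that list. In the whole list, windows away from coding genes included, 11.1% were higher. In the authors' deposited table the lower windows ran from -14.8 to -10.1 points with a median of -11.2. Over all 23 windows the median was -11.2, beside -11.2 over all coding-gene windows. Of the 22 lower windows, 16 fell by less than 12 points, close to the 10 points that the list requires. An adjusted p under 0.01 was reached by 14 of the 23 windows (60.9%), beside 50.9% of coding-gene windows. Those 14 windows lay at 12 members, a rule that 11.5% of coding genes met.

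**Figure D2:**
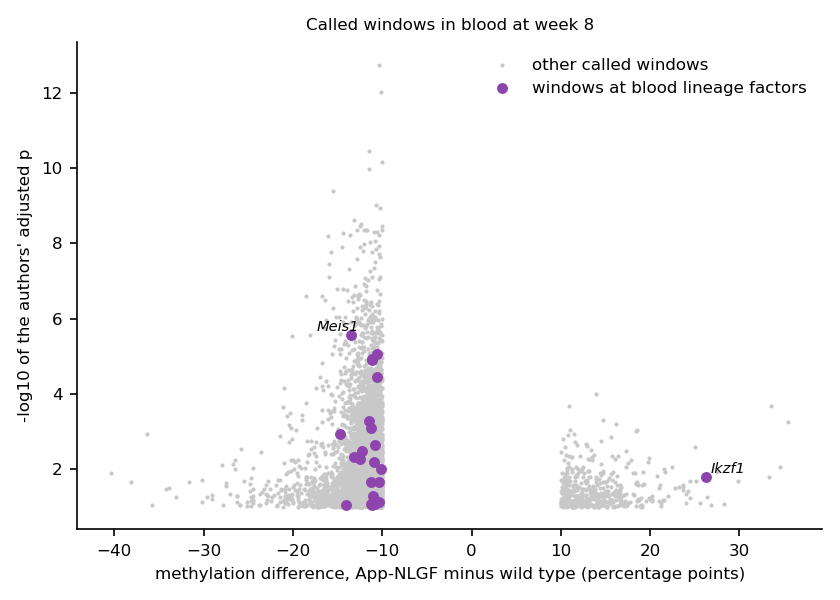
Every called window in blood at week 8, by methylation difference in percentage points (horizontal) and -log10 of the authors' adjusted p (vertical), with windows at blood lineage factors in purple. The empty band between -10 and 10 is the authors' threshold; 22 purple points sit on the left between -14.8 and -10.1, and Ikzf1 stands alone on the right at 26.2.

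Of the 4 role groups of members, the factors of stem cells and of the red cell and platelet branches had the highest count, with 9 of 15 genes (60%) in blood at week 8, beside 19.5% of coding genes. Their 12 windows were all lower (median -11.2 points), as were 94.0% of coding-gene windows. Differences between the role groups were not tested. Meis1, a homeobox cofactor of stem cell self-renewal, held the window with the smallest adjusted p of any member, inside the gene and 1.97 kb downstream of its listed start. For that window (chromosome 11, 19016001 to 19017000) the authors' deposited table gave -13.4 points with an adjusted p of 2.68e-06, which ranked 153 among the 4526 windows of the list. A further Meis1 window, 8.43 kb beyond the opposite end of the gene, was at -12.5 points in the authors' deposited table. Runx1, the factor that starts definitive blood formation, has a distal and a proximal promoter. Its window lay 0.672 kb upstream of the proximal start, and the authors' deposited table gave -14.8 points there, the lowest value of any member in this list (chromosome 16, 92698001 to 92699000, adjusted p = 0.00114). Myb, which keeps progenitors dividing, was at -11.2 points in a window 0.984 kb inside its start in the authors' deposited table (chromosome 10, 21159001 to 21160000, adjusted p = 1.18e-05).

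Tal1, the basic helix-loop-helix factor at the head of this program, held 2 lower windows. One covered a listed start of the gene and the other lay 3.43 kb upstream of the gene body. The authors' deposited table gave -10.6 points for the former (chromosome 4, 115057001 to 115058000, adjusted p = 3.57e-05) and -13.2 points for the latter (adjusted p = 0.00462). Mecom, a zinc finger gene whose long and short products begin at starts far apart, also held 2 windows in blood at week 8. The first covered the inner start, and the authors' deposited table gave -11.0 points there (chromosome 3, 30013001 to 30014000, adjusted p = 0.0507). The second lay 4.24 kb upstream of the outer start and stood at -11.2 points in the authors' deposited table (adjusted p = 0.000785). Members with 2 windows were thus Tal1, Meis1 and Mecom, 3 of 49, where 3.0% of coding genes had 2 or more.

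The Tal1 and Mecom promoters covered by these windows are shown because they are the parts of the windows whose sequence was at hand. The difference belongs to the whole 1 kb window, and no values of single CG sites were at hand. The only other such promoter, of Zbtb7b, is given further on. Sequences are from RefSeq on GRCm38.p6, 5′ to 3′ along the gene's strand, from 250 bases before the start to 50 after it, and the capitals mark each CG, the dinucleotide in which methylation was counted. The Tal1 stretch is chr4:115057561-115057860 on the plus strand, with 22 CG. The Mecom stretch is chr3:30013155-30013454 on the minus strand, with 9 CG.
Tal1: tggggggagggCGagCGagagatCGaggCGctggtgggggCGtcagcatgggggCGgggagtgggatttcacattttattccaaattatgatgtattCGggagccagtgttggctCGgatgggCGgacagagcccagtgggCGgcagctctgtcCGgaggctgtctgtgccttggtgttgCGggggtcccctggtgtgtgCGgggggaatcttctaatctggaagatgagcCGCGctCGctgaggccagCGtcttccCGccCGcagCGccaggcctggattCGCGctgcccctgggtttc
Mecom: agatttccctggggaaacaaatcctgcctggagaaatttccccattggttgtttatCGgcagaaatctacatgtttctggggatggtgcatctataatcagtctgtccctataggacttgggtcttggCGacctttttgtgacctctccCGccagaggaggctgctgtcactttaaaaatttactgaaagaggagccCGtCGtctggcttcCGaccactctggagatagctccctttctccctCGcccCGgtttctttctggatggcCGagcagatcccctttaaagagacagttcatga

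Other genes of this group had 1 window each in blood at week 8. Gata1, the X-linked master factor of red cells and platelets, was at -10.8 points inside the gene, 3.91 kb downstream of its start, in the authors' deposited table (adjusted p = 0.0854). Gfi1b, a repressor of the same branch, was at -10.1 points 5.02 kb upstream in the authors' deposited table (adjusted p = 0.00955). Fli1, an ETS factor of stem cells and megakaryocytes, was at -10.9 points inside the gene in the authors' deposited table (adjusted p = 0.0064). Lyl1, the closest relative of Tal1, was tied to a window 2.29 kb beyond its end, at -11.5 points in the authors' deposited table (adjusted p = 0.000537), and that window lies inside the neighbouring gene Nfix. The 6 genes of this group without a window in this list were Lmo2, Gata2, Klf1, Nfe2, Erg and Etv6.

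Among the myeloid factors 1 of 6 genes had a window in blood at week 8 (16.7%, near the 19.5% of coding genes). Gfi1, a repressor needed for neutrophils, had a window inside the gene 0.343 kb downstream of a listed start, and the authors' deposited table gave -12.3 points (chromosome 5, 107723001 to 107724000, adjusted p = 0.0032). Spi1, which encodes the myeloid and B cell factor PU.1, and Irf8, a monocyte and dendritic cell factor, had no window in any list. The same held for Cebpa, Cebpb and Cebpe, the factors of granulocyte development.

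B lineage factors had a window in 6 of 12 genes in blood at week 8 (50%, beside 19.5% of coding genes), 5 windows lower and 1 higher. The higher window belonged to Ikzf1, which encodes Ikaros, a zinc finger factor needed for all lymphocytes. It lay inside the gene, 50.8 kb downstream of the nearest listed start, and the authors' deposited table gave 26.2 points (chromosome 11, 11741001 to 11742000, adjusted p = 0.0159). Of the 4526 windows in the list 502 were higher, and 10 of those, this one included, were at or above that value. Pax5, the factor that commits cells to the B lineage, was at -14.1 points, 111 kb into the gene, in the authors' deposited table (chromosome 4, 44599001 to 44600000, adjusted p = 0.0914). Bcl11a, which acts in B cells and silences fetal globin, was at -10.8 points 0.695 kb upstream of its listed start in the authors' deposited table (adjusted p = 0.00229). Prdm1, the plasma cell factor Blimp-1, was at -10.6 points in a window 0.443 kb outside the upstream end of its annotated body, 70.3 kb upstream of its listed start, in the authors' deposited table (chromosome 10, 44529001 to 44530000, adjusted p = 8.53e-06).

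The remaining B lineage windows lay nearer to other genes. Tcf3, which encodes the E2A proteins of early B cells, was reached by a window at a distance of 7.54 kb, listed with -10.3 points in the authors' deposited table (adjusted p = 0.0221), which lies within 1 kb of the coding gene Uqcr11. Ikzf3, the Ikaros relative Aiolos of mature B cells, was reached by one at 4.61 kb, for which the authors' deposited table lists -11.3 points (adjusted p = 0.0819), within 1 kb of Mien1. Members of this group without a window in any list were Ebf1, Foxo1, Spib, Irf4, Bach2 and Bcl6.

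Factors of T cells, natural killer cells and innate lymphoid cells had a window in 4 of 16 genes in blood at week 8 (25%), near the 19.5% of coding genes. All 4 windows were lower (median -11.1 points), in a list where 94.0% of coding-gene windows were. Zbtb7b, which encodes ThPOK, the factor that directs thymocytes to the CD4 lineage, had a window over a listed start. The authors' deposited table gave -11.2 points there (chromosome 3, 89393001 to 89394000, adjusted p = 1.23e-05). Bcl11b, needed for T cell commitment, was at -11.1 points, 22.4 kb into the gene, in the authors' deposited table (adjusted p = 0.0882). Runx2, best known from bone and also present in lymphoid cells, was at -11.3 points, 79.6 kb into the gene, in the authors' deposited table (adjusted p = 0.0221). Ikzf4 (Eos) was reached by a window at 2.84 kb, for which the authors' deposited table lists -10.4 points (adjusted p = 0.0722) and which lay within 1 kb of Rps26, a ribosomal protein gene. The Zbtb7b promoter, chr3:89393329-89393628 on the minus strand with 8 CG, is printed in the same way as the others because the window covers it.
Zbtb7b: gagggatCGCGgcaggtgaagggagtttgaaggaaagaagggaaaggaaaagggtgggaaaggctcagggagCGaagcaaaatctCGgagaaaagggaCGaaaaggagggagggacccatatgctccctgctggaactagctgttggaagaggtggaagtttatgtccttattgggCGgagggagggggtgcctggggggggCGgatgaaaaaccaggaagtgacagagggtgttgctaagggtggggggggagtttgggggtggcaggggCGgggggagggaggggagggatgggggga

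**Figure D3:**
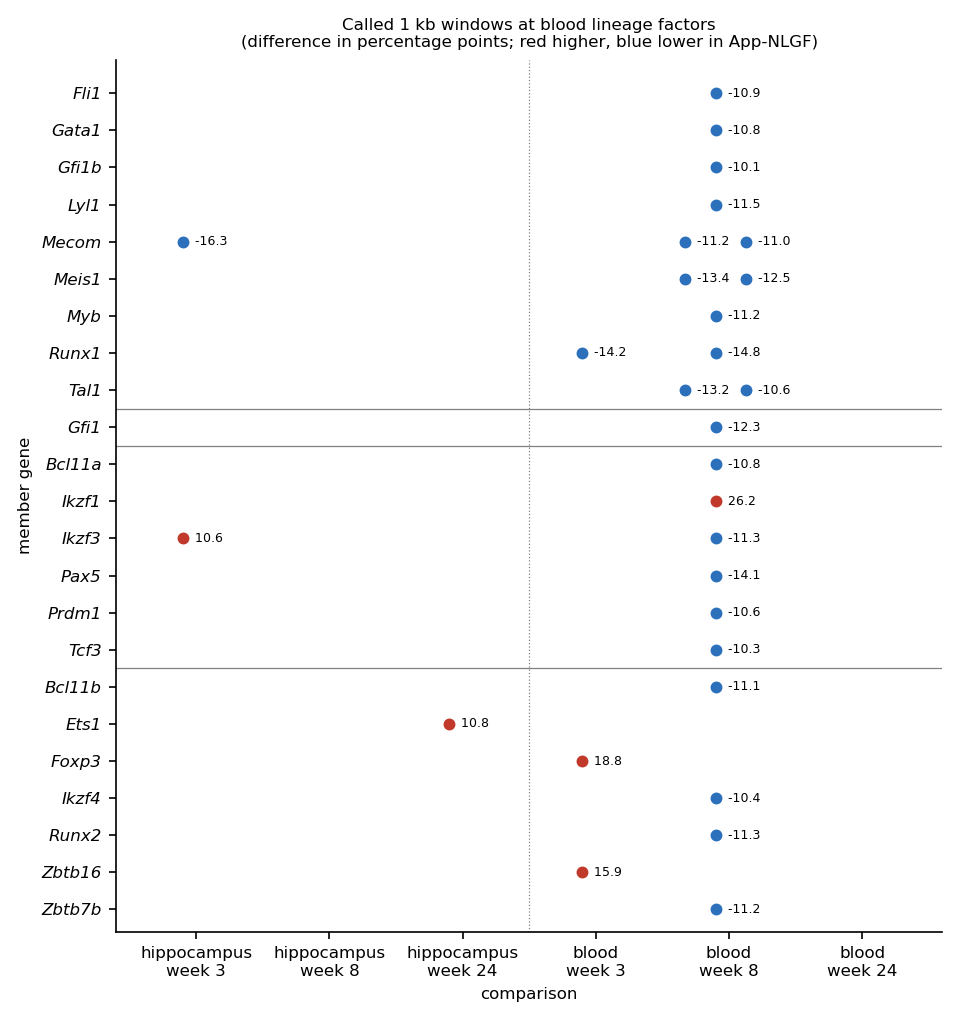
Every called window at the 23 members that have one, by comparison (columns) and gene (rows, in order stem cell and megakaryocyte-erythroid, myeloid, B lineage, then T, NK and innate lymphoid, parted by grey lines), with the difference in percentage points beside each point. The blood week 8 column holds 23 of the 29 windows, all blue (lower) but Ikzf1.

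By gene family the counts are small and were not tested. In blood at week 8, where 19.5% of coding genes had a window, one was tied to 3 of 4 Ikaros genes, 2 of 3 RUNX genes, 1 of 3 GATA genes and 1 of 6 ETS genes. Among the Ikaros genes, the windows of Ikzf3 and Ikzf4 lie nearest to Mien1 and Rps26. Both members of the pairs Tal1 and Lyl1, Bcl11a and Bcl11b, and Gfi1 and Gfi1b had one, though the Lyl1 window lies nearest to Nfix. The 3 C/EBP genes, the T cell partners Tcf7 and Lef1, and Irf4 with Irf8 had none in any list.

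Most windows at the members lay away from the outer ends of gene bodies. In blood at week 8, 7 of the 23 (30.4%) were within 1 kb of either end of some coding gene, beside 57.5% of all coding-gene windows in that list, a difference that was not tested. Of these 7, 4 lay at the member's own end (Myb, Prdm1, Tal1 and Zbtb7b) and 3 at the end of a neighbour (Ikzf3, Ikzf4 and Tcf3). With windows at gene ends left out, 14 members (28.6%) had one, beside 6.66% of coding genes. Starts inside a gene body were not counted as ends. Windows of Mecom, Runx1, Bcl11a and Gfi1 that covered a listed start or lay within 1 kb of it therefore stayed in. Gene length was not allowed for in either share. Counting a window only for its nearest coding gene dropped Ikzf3, Ikzf4, Lyl1 and Tcf3 and left 16 members (32.7%), beside 14.7%. Inside gene bodies alone there were 14 members (28.6%), beside 13.1%.

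Distance from a listed start could be measured for 20 windows at 17 members, since the promoter sequences used here held none for Fli1, Ikzf3 and Ikzf4. Of the 20, 7 (35%) lay within 1 kb of a start, 11 (55%) within 5 kb and 7 (35%) more than 20 kb away. The corresponding shares were 46.9%, 58.3% and 20% of 3948 pairs of a window and a coding gene with a listed start. A window was counted there for each gene it reached. The windows at Mecom, Tal1 and Zbtb7b covered a start, those of Runx1 and Bcl11a lay just upstream, and those of Gfi1 and Myb just downstream.

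**Figure D4:**
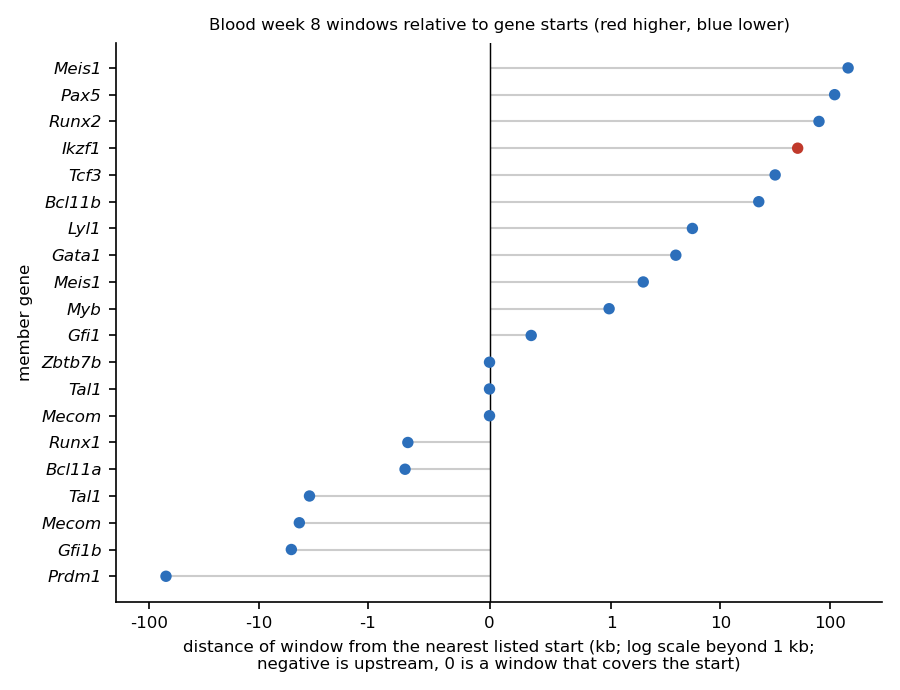
Distance of 20 blood week 8 windows from the nearest listed start of the member (horizontal, kb, linear within 1 kb and logarithmic beyond, negative upstream), 1 row per window; red is higher and blue lower in App-NLGF. Of the windows, 7 lie within 1 kb of a start; the higher one, at Ikzf1, lies 50.8 kb downstream.

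The members are longer than most genes, with a median body of 36.1 kb against 17.3 kb for coding genes, and longer genes can hold more windows. Among genes under 20 kb, 6 of 18 members had a window in blood at week 8 (33.3%, against 17.4% of coding genes of that length). From 20 to 100 kb it was 8 of 16 members (50%, against 19.2%), and over 100 kb 6 of 15 (40%, against 30.5%). Per length of sequence searched, members held 4.07 windows per Mb and coding genes 2.57. In the other 5 lists the members' density was 0 to 0.531 windows per Mb, and that of coding genes 0.186 to 0.426. Long members were found both with and without windows. Ebf1 (390 kb), Bach2 (348 kb), Tox (305 kb), Etv6 (234 kb) and Erg (227 kb) had no window in any list. Mecom (558 kb), the longest member, had 3 over all lists, Runx1 (225 kb) had 2 and Runx2 (319 kb) had 1. The short Tal1 (15.3 kb) had 2.

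**Figure D5:**
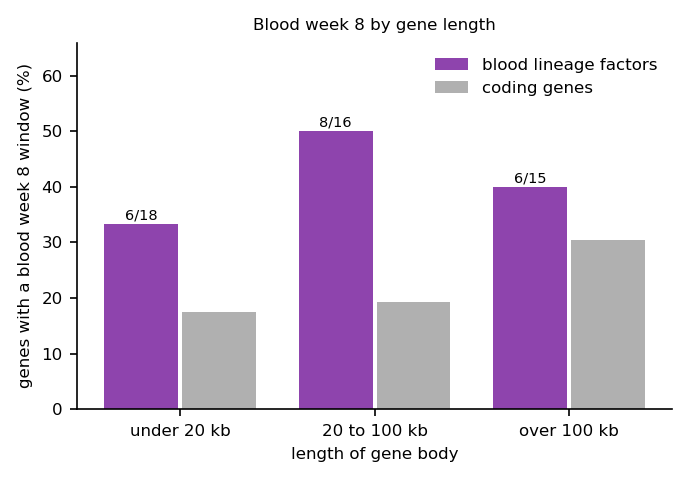
Share of genes with a blood week 8 window (vertical axis, percent) in 3 classes of gene body length, for blood lineage factors (purple, with counts) and all coding genes (grey). The purple bars stand at 33.3%, 50% and 40% and the grey bars at 17.4%, 19.2% and 30.5%.

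In blood at week 3 the 3 members were Foxp3, Zbtb16 and Runx1. Foxp3, the X-linked factor of regulatory T cells, was at 18.8 points inside the gene, 5.52 kb from the nearest listed start, in the authors' deposited table (chromosome X, 7586001 to 7587000, adjusted p = 0.0756). Zbtb16, the PLZF factor of natural killer T cells, was at 15.9 points inside the gene in the authors' deposited table (chromosome 9, 48671001 to 48672000, adjusted p = 0.0912), in a stretch that also holds the predicted coding gene Gm32280. Runx1 was at -14.2 points inside the gene in the authors' deposited table (chromosome 16, 92654001 to 92655000, adjusted p = 0.0535). That window is 42.3 kb downstream of the nearest listed start, so Runx1 was lower at weeks 3 and 8 at different places. None of the 3 windows reached an adjusted p under 0.01, which 11.2% of coding-gene windows in that list did.

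In hippocampus the windows fell in Ikzf3, Mecom and Ets1, all inside the gene. At week 3 the authors' deposited table gave -16.3 points at Mecom (chromosome 3, 30329001 to 30330000, adjusted p = 0.0559), 180 kb from the nearest listed start. Ikzf3 was at 10.6 points at week 3 in the authors' deposited table (chromosome 11, 98537001 to 98538000, adjusted p = 0.049). At week 24 the lymphoid ETS gene Ets1 was at 10.8 points in the authors' deposited table (chromosome 9, 32693001 to 32694000, adjusted p = 0.0804). These values went both ways, with 2 higher and 1 lower.

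Set side by side, the 3 blood lists held a window at 22 members (44.9%, against 22.4% of coding genes) and the 3 hippocampal lists at 3 (6.12%, against 6.27%). In the 6 lists together 23 members had a window, where 26.7% of coding genes did. Of the 29 member windows 89.7% came from blood, beside 69.7% of all 8961 windows. Most of this rested on week 8: blood at weeks 3 and 24 together held a window at 3 members (6.12%, against 3.94%), the same number as hippocampus. Both tissues had a window at Mecom and Ikzf3, 2 of 49 members, where 1.94% of all coding genes were called in both. These 2 made up 9.09% of the members called in blood, close to the 8.67% among coding genes called there. They made up 66.7% of the 3 members called in hippocampus, beside 31% among coding genes called there. At Ikzf3 the blood window is the one near Mien1 and is lower, and the hippocampal window inside the gene is higher. At the members 0 positions were called in more than 1 list, a count that was not made over all called windows.

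Other genes of the blood program were counted in the same way. Of 45 cofactors and further blood transcription factors 16 (35.6%) had a window in blood at week 8, beside 19.5% of coding genes. All 17 windows were lower and 12 lay at gene ends, where 94.0% of coding-gene windows were lower and 57.5% lay at ends. Tcf4, an E protein of plasmacytoid dendritic cells that is also abundant in brain, was at -18.5 points in the authors' deposited table (adjusted p = 2.44e-07), and Rora, a factor of innate lymphoid cells, at -12.8. At week 3 Elf1, an ETS factor, was at 19.4 points in blood in the authors' deposited table. In hippocampus at week 3 Foxp1 was at 12.1, Tcf4 at -10.7 and Rora at -10.6 points in the authors' deposited table.

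Genes that mark mature cells were counted as well. In blood at week 8 a window was found at 2 of 16 B cell markers (12.5%), 2 of 24 T and NK cell markers (8.33%), 0 of 20 myeloid markers and 3 of 20 erythroid and megakaryocyte markers (15%). Each of these 4 shares was below the 19.5% of coding genes. Neuron markers had one at 9 of 20 genes (45%), with 11 windows lower and 1 higher, and glia and vessel markers at 5 of 20 (25%). The share of the blood lineage factors (40.8%) was thus not the highest of the lists counted, and the part of other cell types in the result was not tested. Examples in blood at week 8 in the authors' deposited table were the erythropoietin receptor gene Epor at -15.1 points and the B cell gene Cd72 at -12.7. Their windows lay 1.9 kb and 4.72 kb outside the gene bodies. In the authors' deposited table the chemokine receptor gene Ccr7 was at -10.6 points (0.199 kb outside) and the GABA enzyme gene Gad2 at -12.7 (inside). Among myeloid markers the authors' deposited table had Ltf at 12.2 points in blood at week 3 and Csf3r at 12.2 in blood at week 24. These windows lay 4.29 kb and 8.03 kb outside the genes. In hippocampus the authors' deposited table had Itga2b, a platelet integrin gene, at 16.9 points at week 8 and Rag2, a recombinase gene, at -15.2 at week 3. The former window lay inside the gene and the latter 1.71 kb outside.

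The count of members depended on the distance allowed. In blood at week 8 it was 14 in gene bodies, 20 within 10 kb and 25 within 50 kb (51%), where 35.2% of coding genes had a window at the widest limit. The farthest window inside it was the one 8.43 kb from Meis1, and the nearest outside were 12 kb from Gata2 (blood week 24, 18.4 points in the authors' deposited table) and 12 kb from Tcf3 (blood week 8, -10.8 points in the authors' deposited table). Beyond 10 kb and within 50 kb also lay windows of Spib, Cebpe, Irf4, Cebpb, Klf1, Lef1 and Lmo2, none of which had one closer. Members with no window within 50 kb in any list included Spi1, Gata3, Tbx21, Runx3, Tcf7, Id2, Nfil3, Bcl6, Ikzf2 and Tox.

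Promoter sequence was at hand for 56 starts of 38 members. The number of CG per 300 bases had a median of 16 at members (2 to 54) and of 7 at all 32619 listed promoters. Starts of members with a blood week 8 window had a median of 11 (23 starts, 17 genes) and those of the other members 17 (33 starts, 21 genes), with ranges that overlap. A start of Ikzf1, at 52 CG, that of Myb, at 40, and the proximal start of Runx1, at 35, were among the richest of the called genes. The other listed start of Ikzf1, the distal start of Runx1 and that of Runx2, each at 2, were the poorest. Gata1, at 4, was also among the poorest. On both strands of the printed promoters 4 short motifs were searched, none of which contains another. The motif of the GATA factors, AGATAA, is held by 11.2% of all listed promoters. That of the RUNX factors, TGTGGT, is held by 16.6%. An E-box of the Tal1 kind, CAGATG, is held by 17.1%. The ETS motif, GGAAGT, is held by 23.9%, and it occurred 2 times in the Zbtb7b promoter. The printed Tal1 and Mecom stretches held none of the 4. A match is a description of letters only.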

How the data were processed

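Whole-genome bisulfite sequencing covered 120 libraries in 12 groups of 10. The tools named in the submitters' processing notes were Bismark, methylKit, Trim Galore and FastQC, without versions, and the build was mm10. Per the labels' protocols, DNA of blood and hippocampus was extracted with different kits. The authors deposited p-values and adjusted p-values per 1 kb window, with sex as a covariate per the series' design text, and a methylation difference in percentage points. No coverage filter or test statistic was stated in these sources, and columns of values per library numbered 0, so no interval could be given. A window absent from the list may have missed a threshold or been too thinly covered.

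Windows were tied to genes of the GRCm38.p6 RefSeq table (21631 coding genes and 49554 genes in all on X and the autosomes) within 10 kb, with pandas 2.3.3 and numpy 2.4.6. The 9 windows on unplaced scaffolds were left out. The assignment was checked on planted windows. A window counts for every gene it reaches, and exons were not used. The members, 4 role groups and 7 further gene lists were chosen with earlier results of these data known, so no test was made on them and all shares are descriptions. Every member with a window is named with its largest difference per list, and up to 3 genes per tissue from the other lists. Alternatives changed the distance, thresholds and treatment of gene ends.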

Additional observations from a re-analysis of the deposited data

How the results depend on the processing

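With windows within 50 kb, members with a window numbered 25 in blood at week 8 (35 windows; 51% of members beside 35.2% of coding genes), 6 at week 3 (6 windows; 12.2% beside 6.05%) and 1 at week 24 (1 window; 2.04% beside 2.7%). In hippocampus at week 8 that distance gave 1 member (1 window; 2.04% beside 3.7%), and any hippocampal list 5. Inside gene bodies blood at week 8 kept 14 windows, and 1 member was called in both tissues. An adjusted p under 0.01 left 12 members and 14 windows in blood at week 8 (24.5% of members beside 11.5% of coding genes), 100% of the windows lower. It left 0 members and 0 windows in blood at week 3 (beside 0.319% of coding genes). The same held in hippocampus at week 3 (beside 0.199%) and week 24 (beside 0.245%). Any blood list then held 12, any hippocampal list 0 and both tissues 0. Among windows of at least 15 points, blood at week 8 kept 1 member and 1 window (2.04% of members beside 1.36% of coding genes). This was the higher one at Ikzf1, so the share that was lower went from 95.7% to 0%. At that limit hippocampus kept 1 member (1 window) at week 3, 2.04% beside 0.92% of coding genes. At week 24 it kept 0 (0 windows), beside 0.901%. Any blood list held 3, any hippocampal list 1 and both tissues 0. For these changed settings, shares of coding genes over the 3 blood lists, the 3 hippocampal lists or both tissues were not counted. Members called in both tissues fell to 1 without windows at gene ends and, in a setting chosen after seeing the data, to 1 with each window given to its nearest coding gene. Without blood at week 8, also chosen after seeing the data, any blood list held 3 and both tissues 0. Merging windows within 10 kb moved no count of windows by over 1.5 times. With all genes as the background in place of coding genes, 12.3% had a window in blood at week 8. Leaving out single libraries was not possible, because the list holds no values per library. No paired analysis was possible because the results come from no test on libraries. Read depth is unknown, so the precision of single differences cannot be given.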
